A study of Mus musculus with 8 samples.

Results

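Synaptic vesicle release rests on a small set of protein families, and 81 genes of these families were followed here in sorted C low-threshold mechanoreceptors (C-LTMRs). They were chosen by name, as every gene of the 55573 in the count table whose mouse symbol is that of a synaptotagmin, syntaxin, syntaxin-binding protein, VAMP, SNAP, complexin, Rab3, synapsin or SV2 gene. Of 83 matching symbols, 2 were left out, both annotated as processed pseudogenes. The 81 genes were 17 synaptotagmins, 15 syntaxins, 7 syntaxin-binding proteins, 7 VAMPs, 5 SNAP genes, 4 complexins, 4 Rab3 genes, 3 synapsins and 3 SV2 genes. The name pattern also caught 4 regulators named after Rab3 and 12 members of the Rab30 to Rab39 range, which are other Rab GTPases. Snap91, the clathrin assembly protein AP180, was caught in the same way among the SNAP genes.

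C-LTMRs are slowly conducting touch neurons without myelin, whose cell bodies lie in the dorsal root ganglia. RNA was sequenced from neurons sorted by GFP from adult mice in 4 groups, male bhlha9 KO, male WT, female bhlha9 KO and female WT, with 2 biological replicates each per the submitters. Bhlha9 encodes a basic helix-loop-helix transcription factor, and the series title asks about differences between the sexes. The allele that carries GFP, which all 4 groups share, and the kind of KO allele are not given in the sources used here.

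Release begins when a vesicle SNARE (VAMP) pairs with the target-membrane SNAREs, a syntaxin and a SNAP protein. Munc18 proteins, the products of the Stxbp genes, hold syntaxin and guide that pairing, complexins bind the assembled SNAREs, and synaptotagmins sense calcium and trigger fusion. Rab3 proteins sit on vesicles before docking, synapsins tether vesicles into a reserve pool, and SV2 proteins are vesicle glycoproteins needed for normal release. Each family has several paralogs with different kinetics and places in the cell, so which paralog a neuron transcribes is part of its synaptic identity.

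Promoter sequences are shown for 2 synaptotagmins, Syt14, the member with the lowest unadjusted p between KO and WT over both sexes, and Syt11, the most abundant synaptotagmin. They are RefSeq windows of build GRCm38.p6, each 300 bases from 250 before the gene start to 50 after it, written along the gene's own strand. Capitals mark the E-box letters CANNTG, the core motif of basic helix-loop-helix factors, which read the same on both strands. The Syt14 window is chr1:193035726-193036025 on the minus strand, and the Syt11 window is chr3:88772550-88772849 on the minus strand.
Syt14: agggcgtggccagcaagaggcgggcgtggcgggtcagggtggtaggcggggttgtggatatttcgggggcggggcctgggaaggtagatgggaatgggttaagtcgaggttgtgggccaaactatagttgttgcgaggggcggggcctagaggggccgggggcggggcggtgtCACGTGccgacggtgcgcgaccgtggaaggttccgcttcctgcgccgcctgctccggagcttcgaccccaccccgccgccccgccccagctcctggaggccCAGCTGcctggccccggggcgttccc
Syt11: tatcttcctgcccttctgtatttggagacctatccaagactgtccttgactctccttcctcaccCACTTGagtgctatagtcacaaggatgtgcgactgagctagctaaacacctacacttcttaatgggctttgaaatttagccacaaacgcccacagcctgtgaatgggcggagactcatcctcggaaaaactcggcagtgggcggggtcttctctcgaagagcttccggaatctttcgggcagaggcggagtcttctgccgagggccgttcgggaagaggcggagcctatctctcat
The Syt14 window held 2 such matches, of which 1 was CACGTG, and the Syt11 window held 1, with no CACGTG. Over all 32851 RefSeq windows of this length, 72.3% held at least 1 CANNTG and 7.2% held CACGTG. Among the 85 windows of the 64 members with an entry, 58 (68.2%) held CANNTG. The RefSeq start of Syt14 was identical to the gene end on the minus strand in the count table (193035775). That of Syt11 was 88772599, against 88775164 in the count table.

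The 8 libraries held 50919885 to 71956309 counts assigned to genes, and 3 counts corresponded to 0.0417 to 0.0589 CPM (counts scaled to the library size, TMM-adjusted). Bhlha9 stood at 0.156 to 0.47 CPM in the KO libraries, against 127 to 161 CPM in the WT libraries. C-LTMR markers were strong in every library, with Th, the rate-limiting enzyme of catecholamine synthesis, at 2976 to 5359 CPM. The 9 C-LTMR markers summed to 4782 and 7055 CPM in male KO libraries, below the 7615 and 7739 CPM of male WT libraries. In females the groups overlapped, with 6489 and 8731 CPM in KO and 7662 and 6559 CPM in WT libraries. One library, male_KO1, stood apart in the sum of the 11 markers of myelinated afferents, at 2393 CPM. The sum was 865 CPM in male_KO2, 759 and 605 CPM in male WT, and 654 to 820 CPM in the 4 female libraries. Nefh alone made up 1551 CPM of the sum in male_KO1. Pvalb, Runx3, Etv1, Spp1, Cntnap2 and Calb1 were also highest there, and Ntrk2 and Ntrk3 were not. Ldb2 (169 CPM) and Necab2 (55.8 CPM) were at their lowest in male_KO1. The C-LTMR markers of male_KO1 had the lowest sum of all, 4782 CPM. Glial markers were at 906 to 3940 CPM in all libraries, with the highest sum also in male_KO1. In bulk samples such as these, fewer cells of a type and less RNA per cell cannot be told apart.

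Levels of different genes are compared below in RPKM, the CPM divided by the exon length in kilobases, as means of 8 libraries with their SD. Of the 81 members, 65 were detected in all 8 libraries, 33 reached 10 RPKM and 4 had 0 counts in every library (Cplx3, Cplx4, Rab32 and Syt8). Counts of 0 allow a level of up to 3 counts per library, and this limit and others like it cover counting error only. Members of at least 10 RPKM varied little, with a median coefficient of variation of 17.5% over the 8 libraries, against 43.1% for those between 1 and 10 RPKM and 142.5% for those detected below 1 RPKM. Stx18, a syntaxin of the endoplasmic reticulum, varied least (4.2%), and Vamp1 varied most among the members of at least 10 RPKM (42.4%).

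Among vesicle SNAREs, Vamp2 (synaptobrevin 2), the main vesicle SNARE of brain synapses, led with 208 ± 36.4 RPKM. Vamp1 (synaptobrevin 1) followed at 18.2 ± 7.70 RPKM and Vamp4, a SNARE of the trans-Golgi network and endosomes, at 17.3 ± 1.77 RPKM. The order of Vamp1 and Vamp4 held in 4 of 8 libraries, but with coding length in place of exon length Vamp1 was 1.93 times Vamp4 and higher in 8 of 8. Vamp2 took 68.6% to 86.3% of the summed family level, lowest in male_KO1. Vamp3 (cellubrevin) and Vamp8 (endobrevin) averaged 2.29 ± 1.55 and 1.39 ± 1.30 RPKM, and Vamp5, best known from muscle, 0.681 RPKM.

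Syntaxins had no dominant member. Endosomal Stx7 was highest (38.6 ± 5.76 RPKM), followed by Stx12, also endosomal (30.9 ± 6.49), and by Stx2 of the plasma membrane (28.7 ± 6.36). Stx1a, a presynaptic syntaxin of the release SNARE complex, averaged 26.3 ± 5.48 RPKM. Stx4a of the plasma membrane averaged 23.6 ± 3.42 RPKM, and Stx18 stood at 11.4 ± 0.472 RPKM, sharing 19.8% of its exon bases with Gm42858 and 12.5% with Nsg1 on the opposite strand. Counting took no account of strand, so that reads over such shared bases could be counted for both genes. Stx7 exceeded Stx12 in 8 of 8 libraries, whereas Stx12 exceeded Stx2 in 7, Stx2 exceeded Stx1a in 6 and Stx1a exceeded Stx4a in 7. With coding length Stx2 lay above Stx12 in 8 of 8 libraries. Stx5a of the Golgi averaged 8.60 RPKM, endosomal Stx8 5.89 RPKM and Stx6 of the trans-Golgi network 4.58 RPKM.

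Of the target-membrane SNAP genes, Snap47, a widely expressed SNAP paralog, stood at 142 ± 32.3 RPKM and Snap25, the neuronal SNARE cut by botulinum toxin A, at 119 ± 17.1 RPKM. Snap47 was above Snap25 in 7 of 8 libraries, the exception being male_KO1. This order depended on the length used, because dividing by coding length placed Snap25 first in 8 of 8 libraries. Jmjd4 shares 11.6% of the Snap47 exon bases on the opposite strand. Snap91 averaged 17.2 ± 4.14 RPKM, Snap29, a SNARE of autophagosome fusion, 4.53 RPKM, and Snap23, the paralog of non-neuronal cells, 0.67 RPKM.

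Among the syntaxin-binding genes, Stxbp5 (tomosyn), an inhibitor of SNARE assembly, averaged 2.2 ± 0.42 RPKM and Stxbp3 (Munc18-3) 0.74 RPKM. Cplx1 was the most abundant of all 81 members per length, at 570 ± 82.5 RPKM. Its level was 33.3 times that of Cplx2 (17.1 ± 4.68 RPKM), and it took 95.1% to 98.3% of the complexin level in each library. With coding length the ratio was 14.8. Cplx3 and Cplx4, known from retinal ribbon synapses, were at 0.

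The synaptotagmins were led by Syt11, a member that does not bind calcium, at 283 ± 24.6 RPKM or 51.9% to 55.6% of the family. Syt5 and Syt1 followed at 61.3 ± 9.18 and 60.9 ± 8.24 RPKM, and their order held in 4 of 8 libraries. With coding length Syt1 was 3.19 times Syt5 and higher in 8 of 8. Syt1 is a fast calcium sensor of release, and the names of Syt5 and Syt9 have been swapped in part of the literature. Syt9 averaged 35.4 ± 7.44 RPKM, Syt4, which like Syt11 does not bind calcium in its first C2 domain, 30.9 ± 7.33 RPKM, and Syt7, a slow, high-affinity calcium sensor, 27.7 ± 6.2 RPKM. Syt3 stood at 16.3 ± 5.09 and Syt6 at 5.78 ± 3.16 RPKM. Syt2, the fast sensor of fast-firing synapses, averaged 1.93 ± 3.62 RPKM, with 10.7 RPKM in male_KO1. Syt14 (1.09 RPKM) and Syt12 (1.04 RPKM), which are thought not to bind calcium, were the lowest above 1 RPKM.

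Rab3a, the main Rab3 of synaptic vesicles, led its group at 300 ± 25.2 RPKM. Rab3d, best known from secretory granules, averaged 60.7 ± 8.0, Rab3c 12.6 ± 1.79 and Rab3b 1.18 ± 0.757 RPKM, and this order held in 8 of 8 libraries. Of the regulators, Rab3ip (Rabin8) averaged 12.7 ± 4.04 RPKM, and Rab3gap2 and Rab3gap1, the subunits of the Rab3 GTPase-activating complex, 9.39 ± 2.45 and 3.28 ± 0.901 RPKM. Iars2 shares 18.8% of the Rab3gap2 exon bases on the opposite strand. Of the Rab30 to Rab39 genes, Rab33a (14.6 ± 2.19 RPKM) and Rab39 (14.3 ± 2.62 RPKM) reached 10 RPKM and differed in order between libraries, with Rab33a higher in 5 of 8, whereas with coding length Rab39 was higher in 8 of 8. Syn1 led the synapsins at 204 ± 36.1 RPKM, above Syn2 (15.9 ± 4.38) and Syn3 (2.03 ± 0.873) in 8 of 8 libraries. Timp3, on the opposite strand, shares 14.1% of the Syn3 exon bases.

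SV2 glycoproteins are also the receptors of botulinum toxin A. Sv2c averaged 62.3 ± 8.32 RPKM and Sv2a 38.1 ± 9.79 RPKM, with Sv2c higher in 8 of 8 libraries, while Sv2b averaged 0.726 RPKM. With coding length in place of exon length, every family kept its leading member except SNAP and the Rab30 to Rab39 group, and 11 of 49 pairs of neighbours in the order of levels changed places.

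**Figure D1:**
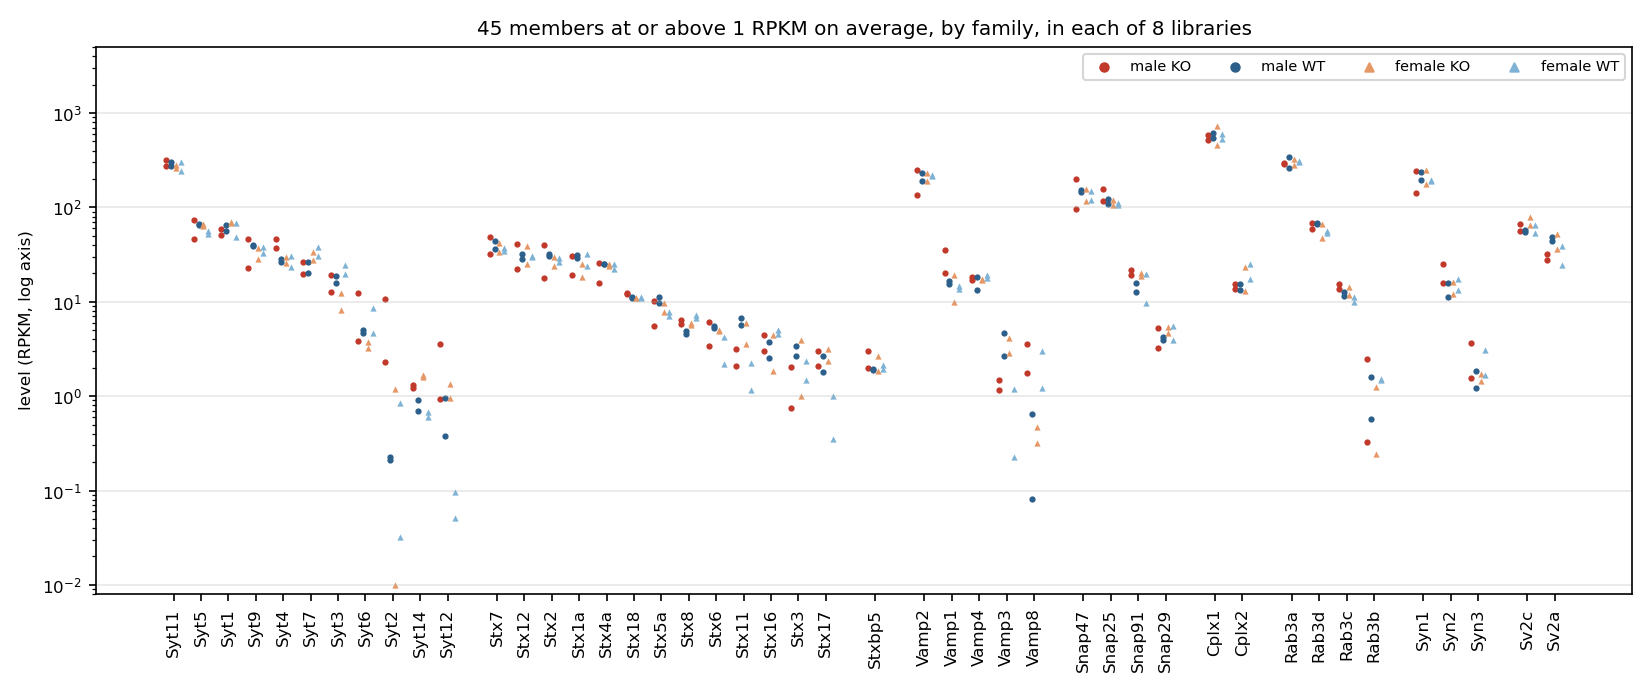
Levels of 45 members of the core families with a mean of at least 1 RPKM, on a log axis, in each of the 8 libraries (male KO, male WT, female KO and female WT from left to right within a gene), with values under 0.01 drawn at 0.01. Cplx1, Rab3a, Vamp2, Syn1 and Syt11 lead their families in all libraries, and Syt2 spreads the most.

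Whether KO and WT libraries differed in paralog choice was asked with the ratio of the 2 most abundant members of each family, on a log2 scale of RPKM plus 0.01. None of the 9 ratios passed between 4 KO and 4 WT libraries (two-sided exact permutation test over 70 regroupings, p between 0.371 and 0.943, Benjamini-Hochberg adjusted p between 0.926 and 0.943 over the 9 families). The smallest unadjusted p this test allows is 0.0286. After adjustment over the 9 families, a single family could therefore not pass 0.05, even with its groups fully apart. The difference furthest from 0 was that of Vamp2 over Vamp1. Its log2 ratio was 1.92 and 3.63 in male KO and 4.24 and 3.59 in female KO libraries, against 3.62 and 3.81 in male WT and 3.91 and 3.96 in female WT libraries. All WT libraries were thus close together, and male_KO1 alone lay far below. The mean ratio was 3.35 ± 0.99 in KO and 3.82 ± 0.15 in WT (SD, n = 4 each), a difference of -0.48 (exact permutation p = 0.514). Without male_KO1 the difference was -0.0.

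Sv2c over Sv2a had the lowest p. Its log2 ratio averaged 0.87 ± 0.42 in KO and 0.61 ± 0.40 in WT libraries (SD, n = 4 each), a difference of 0.26 (exact permutation p = 0.371). In males both KO libraries (1.26 and 0.80) lay above both WT libraries (0.40 and 0.18). In females the KO ratios of 1.12 and 0.32 enclosed the WT ratios of 0.76 and 1.10. Syt11 over Syt5, Stx7 over Stx12 and Rab3a over Rab3d differed by -0.03, -0.01 and -0.01, with the groups overlapping in each.

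**Figure D2:**
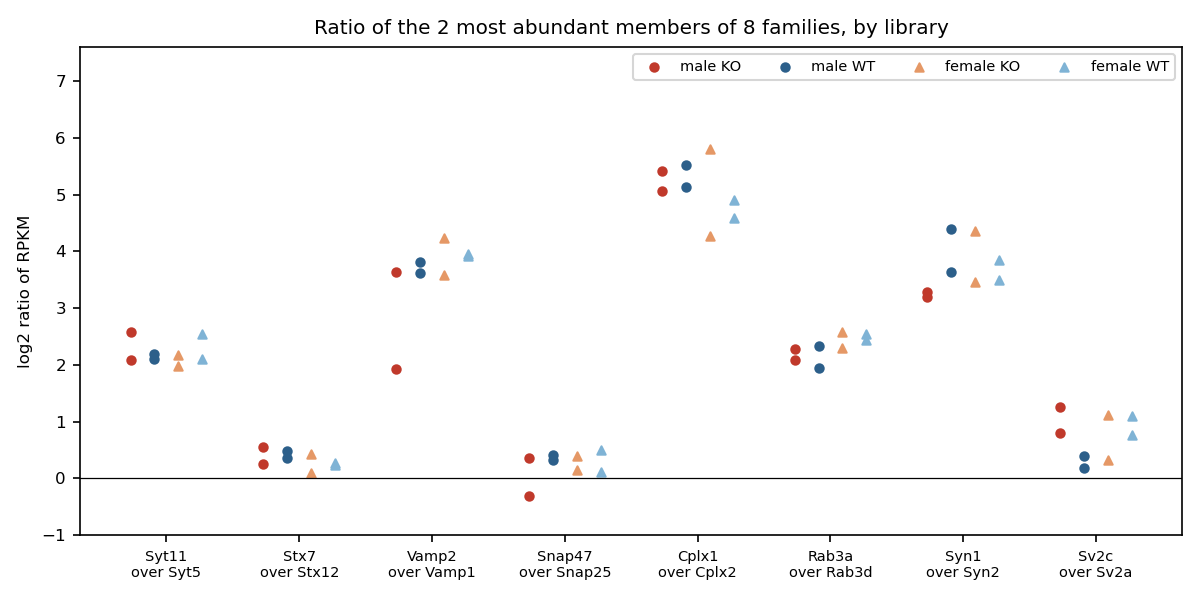
Log2 ratio of the RPKM of the 2 most abundant members of 8 families in each library, with the leading member on top of the ratio. KO and WT libraries overlap in all 8 families, the ratio of Vamp2 over Vamp1 is lowest in male_KO1 (1.92), and only Snap47 over Snap25 crosses 0.

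Of the 81 members, 75 passed the filter on low counts and were tested between KO and WT. The other 6 were the 4 at 0 and Syt10 and Syt17, with 33 and 2 counts in all. Over both sexes none of the 75 passed edgeR's quasi-likelihood test at an adjusted p below 0.05, and over all 22013 tested genes 0.00454% were called, which was Bhlha9 alone. DESeq2 called 2 members, both higher in KO, against 0.236% of all tested genes. At an unadjusted edgeR p below 0.05 there were 5 of 75 members, against 3.56% of all genes. The fold changes were positive for 46 and negative for 29 members, against 51.4% positive over all tested genes. Their median was 0.05 on the log2 scale, against 0.01 over all tested genes.

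The 2 members called by DESeq2 were Syt14 and Syt12. Syt14 (chromosome 1, 192891233 to 193035775, minus strand) stood at 14.4 and 15.6 CPM in male KO and 19.0 and 20.2 CPM in female KO libraries, against 8.31 and 10.7 CPM in male WT and 8.12 and 7.26 CPM in female WT libraries. All 4 KO libraries lay above all 4 WT libraries. Over both sexes this was a log2 fold change of 1.0 (SE 0.23, edgeR unadjusted p = 0.00268, adjusted p = 1, DESeq2 adjusted p = 0.0451), and of at least 0.89 without any single library.

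Syt12 (chromosome 19, 4445908 to 4477447, minus strand) stood at 19.8 and 5.12 CPM in male KO and 7.54 and 5.28 CPM in female KO libraries, against 2.08 and 5.25 CPM in male WT and 0.282 and 0.539 CPM in female WT libraries. The genotypes overlapped through male_KO2 and male_WT2. This gave a log2 fold change of 2.84 (SE 0.73, edgeR adjusted p = 1, DESeq2 adjusted p = 0.0148). In males alone it was 1.77 (SE 0.80), and 0.48 (SE 0.84) without male_KO1. A gene on the opposite strand, A930001C03Rik, shares 17.2% of the Syt12 exon bases, and strand was not used in counting.

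The KO libraries lay above all WT libraries for 2 members, Syt14 and Rab30, against 0.936% of all tested genes, and below them for no member, against 0.895%. Rab30, a Rab of the Golgi, stood at 20.9, 10.4, 12.6 and 8.71 CPM in KO and at 2.95, 8.65, 5.86 and 8.44 CPM in WT libraries (log2 fold change 1.0, SE 0.44, edgeR adjusted p = 1). The gap between the groups was narrow, 8.71 CPM in female_KO2 against 8.65 CPM in male_WT2. Rab3c averaged 166 ± 18.8 CPM in KO and 137 ± 13.1 CPM in WT libraries (SD, n = 4 each), a log2 fold change of 0.28 (SE 0.11). Rab3gap1 averaged 32.4 ± 7.38 CPM in KO and 44.6 ± 10.4 CPM in WT libraries (-0.45, SE 0.18), and Syt3 averaged 40.9 ± 14.1 CPM in KO and 60.9 ± 11.1 CPM in WT libraries (-0.59, SE 0.27). Each of these 3 had an edgeR adjusted p of 1, with overlapping groups.

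The abundant members were close to 0. Cplx1 had a log2 fold change of -0.00 (SE 0.16), Syt11 0.00 (SE 0.11), Rab3a -0.03 (SE 0.11), Syt1 0.04 (SE 0.15), Vamp2 -0.10 (SE 0.20) and Snap25 0.16 (SE 0.12). Cplx1 stood at 1121, 1276, 995 and 1600 CPM in KO and at 1201, 1336, 1310 and 1149 CPM in WT libraries, so the KO values enclosed the WT values. Snap25 stood at 799, 1073, 717 and 814 CPM in KO and at 739, 824, 714 and 757 CPM in WT libraries. Here the groups overlapped, with male_KO2 the highest of all. Leaving out single libraries turned the sign of all of these except Snap25, within -0.29 to 0.12.

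**Figure D3:**
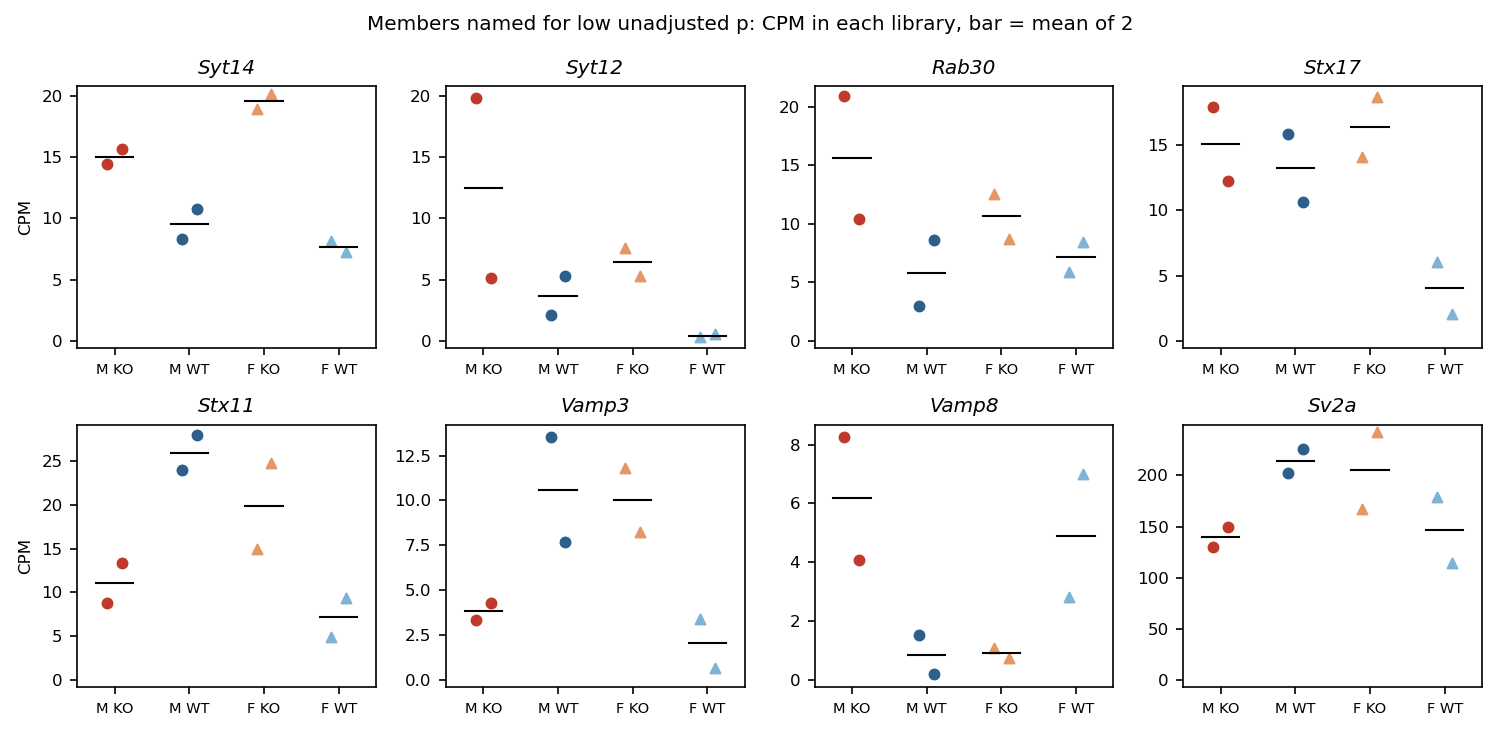
CPM of 8 members named for their low unadjusted p or for groups that did not overlap, in male KO, male WT, female KO and female WT libraries, with 2 libraries per group and a bar at their mean. Syt14 is higher in KO in both sexes, while Stx11 and Vamp3 are lower in KO in males and higher in females, and Vamp8 is the reverse.

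In males alone none of the 75 members passed edgeR (0.00454% of all tested genes) or DESeq2 (0.754%). At an unadjusted p below 0.05 there were 7 members, against 3.5% of all genes. Both KO libraries were above both WT libraries for 19 members, against 14.5% of all tested genes, and below for 8, also against 14.5%. The median log2 fold change was 0.11, against 0.02 over all genes, with 44 of 75 positive, against 51.9% of all genes.

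Syt4 had the lowest p in males, at 143 and 179 CPM in male KO against 110 and 102 CPM in male WT libraries (log2 fold change 0.61, SE 0.21, edgeR adjusted p = 1). Gm26658, on the opposite strand, shares 14.5% of the Syt4 exon bases. Stx11, a syntaxin of cytotoxic granule release in lymphocytes, stood at 8.81 and 13.4 CPM in male KO against 24.0 and 28.0 CPM in male WT libraries (-1.23, SE 0.45). Neither pair of groups overlapped. Vamp8 stood at 8.27 and 4.09 CPM in male KO against 1.51 and 0.189 CPM in male WT libraries (2.86, SE 1.10). This was 2.0 without male_WT2 and 5.01 without male_WT1. Vamp5 stood at 8.96 and 1.05 CPM in male KO against 0.587 and 0.708 CPM in male WT libraries (2.95, SE 1.23), and without male_KO1 its fold change was 0.69. Stxbp6 (amisyn), a SNARE-binding inhibitor, stood at 8.08 and 1.59 CPM in male KO with 0 counts in both male WT libraries. Against a floor of 3 counts per library this was at least 101-fold higher, and at least 33.3-fold without male_KO1. All had an edgeR adjusted p of 1.

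Syt2, Sv2b and Vamp1 differed between the male KO libraries themselves. Syt2 stood at 81.6 CPM in male_KO1 and 17.4 CPM in male_KO2, against 1.62 and 1.75 CPM in male WT libraries. In the female libraries it was 8.99 and 0.0281 CPM in KO and 0.247 and 6.46 CPM in WT. Both male KO libraries were thus above every other library, and male_KO1 was far above male_KO2. Sv2b stood at 25.8 and 10.8 CPM in male KO, against 1.05 and 0.424 CPM in male WT libraries. Vamp1 stood at 362 and 205 CPM in male KO, against 156 and 170 CPM in male WT libraries.

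The log2 fold changes in males were 4.88 (SE 2.29) for Syt2, 4.63 (SE 2.03) for Sv2b and 0.80 (SE 0.37) for Vamp1, each with an edgeR adjusted p of 1. Without male_KO1 they were 3.37 (SE 2.47) for Syt2, 3.88 (SE 2.37) for Sv2b and 0.33 (SE 0.37) for Vamp1, so that each remained positive. The authors' deposited table for males lists 150 genes, Syt2 and Sv2b among them. It gives a log2 fold change of 2.43 (SE 0.37, adjusted p = 5.82e-08) for Syt2 and of 2.24 (SE 0.37, adjusted p = 1.29e-06) for Sv2b. DESeq2 as run here called neither gene in males. Its log2 fold changes were 4.88 for Syt2 (DESeq2 adjusted p = 0.543) and 4.64 for Sv2b (DESeq2 adjusted p = 0.161). Why the authors' values differ from these was not tested. The authors' deposited table for females lists 13 genes and no member.

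Most markers of several other cell types were higher on average in male KO libraries as well. Of the 11 markers of myelinated afferents 10 were tested, and 8 of the 10 had a positive fold change in males, with a median of 2.48 on the log2 scale, against 51.9% positive and a median of 0.02 over all tested genes. None of the 10 was called by edgeR, and 3 were by DESeq2 (Cntnap2, Etv1 and Nefh), against 0.754% of all genes. The vascular and fibroblast markers were positive in 8 of 8 (median 4.34, no call by edgeR or DESeq2), from low levels. They summed to 75.5 CPM in male_KO1 and 24.1 CPM in male_KO2, against 16.5 and 2.88 CPM in male WT libraries. Cldn5, Kdr, Cdh5 and Col1a1 of this list were at 0 CPM in male_KO2. The peptidergic nociceptor markers were positive in 8 of 9 (median 1.73, no call by edgeR and 2 by DESeq2). Nefh, the heavy neurofilament chain, stood at 1551 and 296 CPM in male KO against 105 and 72.4 CPM in male WT libraries. Pvalb (parvalbumin) stood at 83.1 and 6.24 CPM in male KO against 2.71 and 1.04 CPM in male WT libraries. Slc17a7, the vesicular glutamate transporter VGLUT1 and a gene of the vesicle membrane list, stood at 162 and 6.06 CPM in male KO against 3.39 and 2.44 CPM in male WT libraries. Calb1 (calbindin) reached 36.7 CPM in male_KO1, against 0 CPM in male_KO2 and 0 and 0.0943 CPM in male WT libraries. The 2 tested markers of this list that went the other way were Ldb2 and Necab2. Ldb2 stood at 169 and 242.5 CPM in male KO against 254 and 240 CPM in male WT libraries. Necab2 stood at 55.8 and 101.5 CPM in male KO against 114 and 108 CPM in male WT libraries. None of the 11 markers was at 0 in all 8 libraries. The 10 glial markers summed to 3940 and 2744 CPM in male KO against 2602 and 906 CPM in male WT libraries. The C-LTMR markers went the other way in males, with 9 of 9 negative (median -0.38) and no call by edgeR or DESeq2. In females 8 of the 9 were positive (median 0.18), against 49% of all tested genes. The part of these cell types in the levels of Syt2, Sv2b and Vamp1 was not tested.

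**Figure D4:**
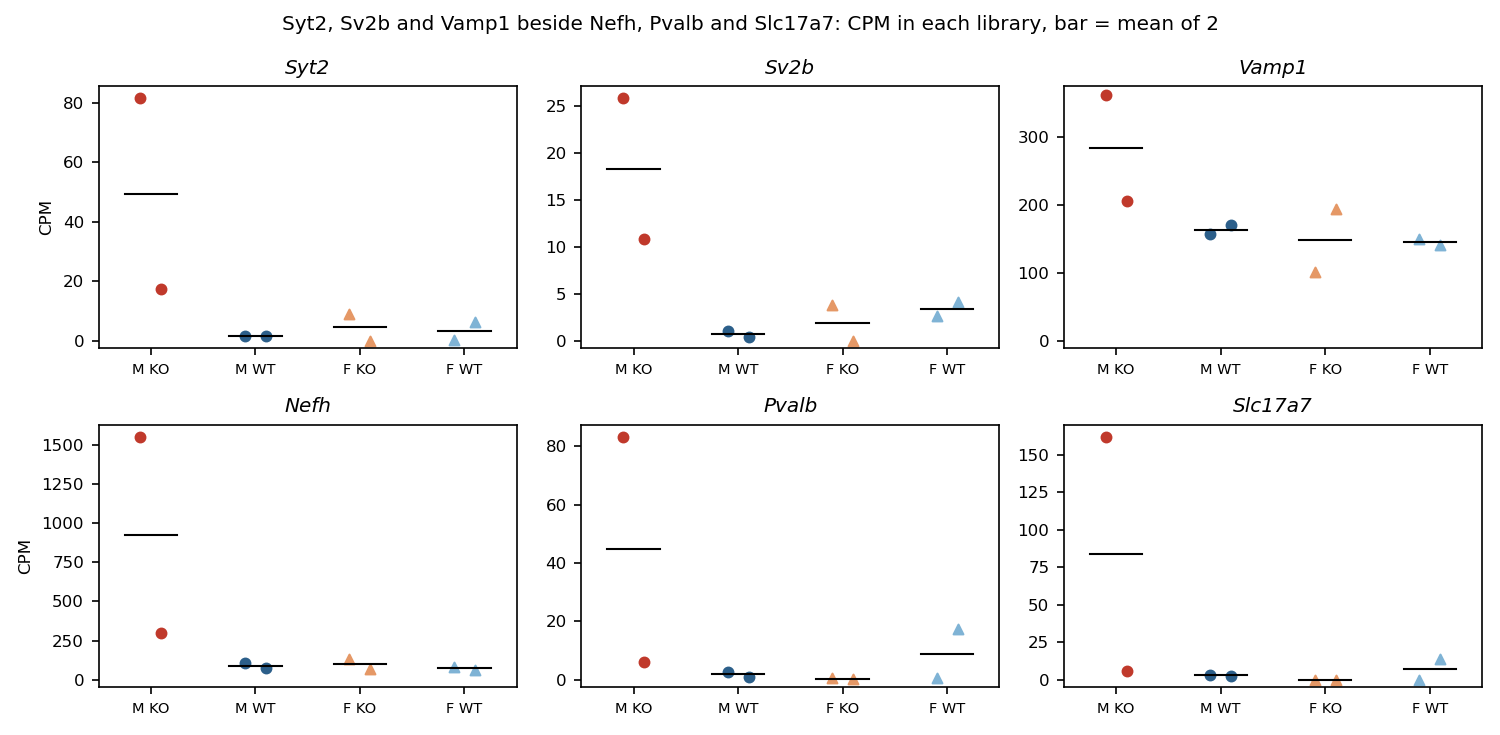
CPM of Syt2, Sv2b and Vamp1 (top) and of Nefh, Pvalb and Slc17a7 (bottom) in male KO, male WT, female KO and female WT libraries, with 2 libraries per group and a bar at their mean. All 6 genes are highest in male_KO1, with Syt2 at 81.6 CPM and Nefh at 1551 CPM there.

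In females none of the 75 members passed edgeR (0.00454% of all tested genes), and DESeq2 called 2, Syt12 and Syt14, against 0.759% of all genes. At an unadjusted p below 0.05 there were 8 members, against 3.81% of all genes. Both KO libraries were above both WT libraries for 15 members (14.2% of all tested genes) and below for 9 (15.1%). The median log2 fold change was 0.06, against 0 over all genes, with 42 of 75 positive, against 49% of all genes. Syt14 had a log2 fold change of 1.35 in females (SE 0.30, edgeR adjusted p = 1, DESeq2 adjusted p = 0.0169), and Syt12 one of 3.96 (SE 0.89, edgeR adjusted p = 1, DESeq2 adjusted p = 0.00138).

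Stx17, the syntaxin of autophagosomes, stood at 14.1 and 18.7 CPM in female KO against 6.02 and 2.08 CPM in female WT libraries (2.02, SE 0.57). In males its groups overlapped, with 17.9 and 12.2 CPM in KO and 15.9 and 10.6 CPM in WT libraries. Syt3 stood at 25.7 and 38.8 CPM in female KO against 75.8 and 60.7 CPM in female WT libraries (-1.08, SE 0.31). Vamp3 stood at 11.8 and 8.23 CPM in female KO against 3.41 and 0.649 CPM in female WT libraries (2.31, SE 0.80). Stx11 stood at 15.0 and 24.8 CPM in female KO against 4.94 and 9.38 CPM in female WT libraries (1.47, SE 0.45). Groups did not overlap in females for these 4 genes, and each had an edgeR adjusted p of 1. Without single libraries the fold change ranged from 1.45 (without female_WT2) to 2.98 (without female_WT1) for Stx17 and, in the same order, from 1.56 to 3.94 for Vamp3. For Stx11 it ranged from 1.06 without female_KO2 to 2.01 without female_WT2, and for Syt3 from -1.41 without female_KO2 to -0.81 without female_KO1.

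The KO effect was then compared between the sexes, with the female effect subtracted from the male effect. No member passed edgeR, and 0.0% of all tested genes were called. At an unadjusted p below 0.05 there were 6 members, against 4.73% of all genes. DESeq2 called 3 members, Stx11, Vamp8 and Rab38, against 0.986% of all genes. For Stx11 the effects were -1.23 in males and 1.47 in females, a difference of -2.70 (SE 0.64, edgeR adjusted p = 0.98, DESeq2 adjusted p = 0.014). For Vamp8 the difference was 5.27 (SE 1.54, edgeR adjusted p = 0.98, DESeq2 adjusted p = 0.0474). In females Vamp8 stood at 1.10 and 0.744 CPM in KO against 2.81 and 7.0 CPM in WT libraries, the opposite order to males. Without single libraries the difference lay between -3.24 and -2.29 for Stx11 and between 4.41 and 7.43 for Vamp8.

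Rab38, a Rab of melanosomes and other lysosome-related organelles named here as a DESeq2 call, stood at 1.01 and 3.36 CPM in male KO with 0 counts in male WT, and at 0 and 0.0281 CPM in female KO against 2.77 and 0 CPM in female WT libraries. Rab38 had 0 counts in 4 of 8 libraries. Vamp3 differed by -3.78 (SE 1.12), Sv2a by -1.10 (SE 0.39) and Stx17 by -1.83 (SE 0.78), each with an edgeR adjusted p of 0.98. Without female_WT1 these were -5.42 for Vamp3, -1.46 for Sv2a and -2.80 for Stx17. Sv2a stood at 130 and 149 CPM in male KO against 203 and 226 CPM in male WT. In females it stood at 167 and 243 CPM in female KO against 179 and 115 CPM in female WT libraries. The male groups were apart and the female groups overlapped. Stxbp6 had 0 counts in both female KO libraries, against 0 and 3.87 CPM in female WT libraries.

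Vamp8 was highest in male_KO1 and female_WT2 (8.27 and 7.0 CPM), and so was the sum of the 9 vascular and fibroblast markers, at 75.5 CPM in male_KO1 and 53.3 CPM in female_WT2. In the other 6 libraries that sum lay between 2.51 and 34.2 CPM. Single markers of the list differed in this. Pecam1, Cldn5, Kdr, Cdh5 and Col1a2 were highest in female_WT2, whereas Col1a1, Col3a1 and Dcn were highest in male_KO1 and Pdgfrb in female_WT1. Col1a1 and Col3a1 stood at only 0.0634 and 0.0792 CPM in female_WT2. All 8 tested markers of this list had a positive male minus female difference, against 51.3% of all tested genes. The 9 peptidergic nociceptor markers had positive differences too (9 of 9), with sums of 1517 and 2122 CPM in male KO against 700 and 756 CPM in male WT, and 1566 and 508 CPM in female KO against 1219 and 1995 CPM in female WT libraries. The difference for Stx11 was negative, as it was for 9 of 9 C-LTMR markers (median -0.55). The 8 immune markers summed to 14.3 to 21.9 CPM in KO and 11.8 to 25.4 CPM in WT libraries. The part of these cell types in the member values was not tested.

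**Figure D5:**
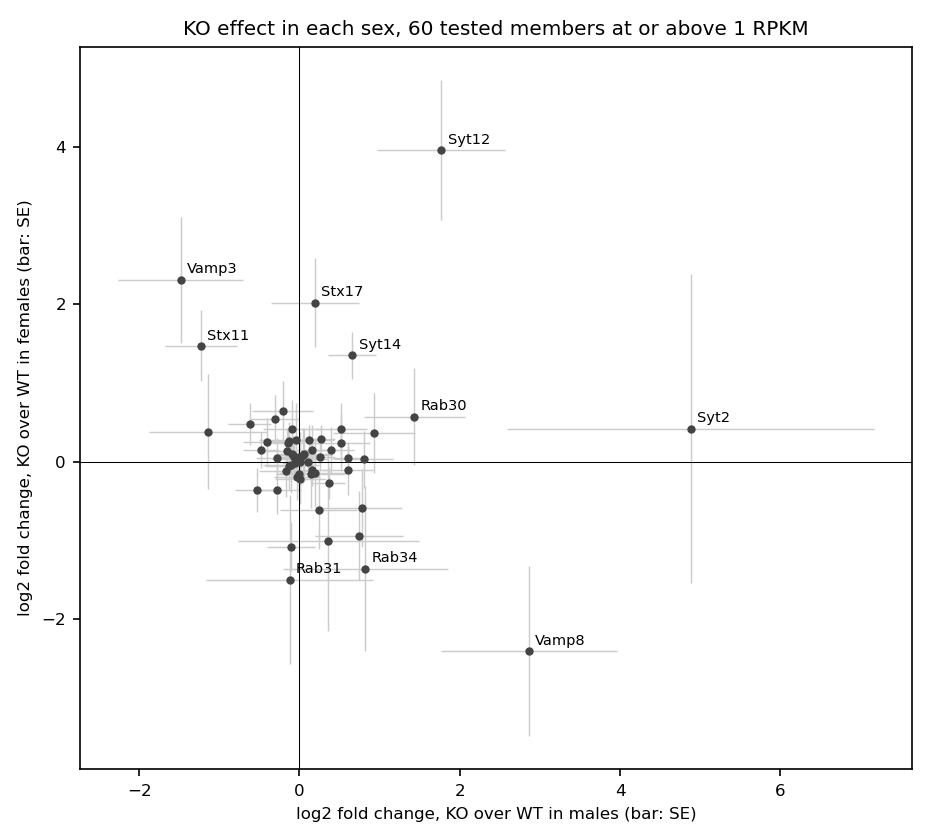
Log2 fold change of KO over WT in males (horizontal) and in females (vertical) for the 60 tested members with a mean of at least 1 RPKM, with SE bars and names where either value exceeds 1.2 in size. Of these, 34 lie within 0.5 of 0 on both axes. Stx11, Vamp3 and Vamp8 are among the members in opposite directions in the sexes, as are Rab34 and Syt6. Syt12 and Syt14 are among those positive in both, as is Rab30.

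Sex itself was compared last, with males over females in one fit across genotypes. No member passed edgeR, against 0.0136% of all tested genes, and DESeq2 called no member, against 0.391%. At an unadjusted p below 0.05 there were 5 members, against 4.8% of all genes. All 4 male libraries lay above all 4 female libraries for 2 members, Rab31 and Rab34 (1.53% of all tested genes), and below them for 1, Syt7 (1.46%). These 3 are named for that separation, after their values were seen. Rab31, a Rab of endosomes, stood at 9.51 to 10.5 CPM in males and 0.313 to 9.51 CPM in females, so that the nearest libraries, male_KO2 and female_WT2, were level to 3 digits. Rab34, a Rab of the Golgi and cilium, stood at 3.77 to 7.12 CPM in males and 0.294 to 3.58 CPM in females. Syt7 averaged 173 ± 26.4 CPM in males and 242 ± 33.5 CPM in females (SD, n = 4 each), a log2 fold change of -0.48 (SE 0.15, edgeR adjusted p = 0.958). Fold changes of males over females were positive for 55 of 75 members, against 51% of all tested genes. Their median was 0.13, against 0.01 over all tested genes. Without single libraries the positive count lay between 47 of 75 (without male_KO2) and 59 of 76 (without male_WT1).

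Other genes of the release and recycling pathway gave no edgeR call in any of the 5 comparisons. Of 26 genes of the active zone and priming machinery, 16 had a positive and 10 a negative KO over WT fold change over both sexes, with a median of 0.04. Napa and Nsf, which take SNARE complexes apart after fusion, were the most abundant of that list per length (171 and 61.5 RPKM). Among vesicle membrane proteins 17 of 20 were tested and 11 were positive, with a median of 0.03, and Syngr3 (synaptogyrin 3) was the highest at 475 RPKM. Among endocytosis genes 21 of 22 were tested and 15 were positive, with a median of 0.05, led by the adaptor subunit Ap2s1 (206 RPKM). The 12 dense-core vesicle genes had 5 positive values and a median of -0.03, with secretogranin Scg3 at 447 RPKM. Of 16 synaptotagmin-like and other C2 genes 11 were tested, 5 were positive, and the rabphilin gene Rph3a was highest at 57.4 RPKM.

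By DESeq2, 2 genes of these lists were called, 1 of 87 tested in males and 2 of 87 for the difference between the sexes, against 0.754% and 0.986% of all tested genes. Slc17a7 was called for the difference between the sexes (DESeq2 adjusted p = 0.00799, edgeR adjusted p = 0.98). Beside its male values above, it stood at 0.0783 and 0.0421 CPM in female KO against 0.0882 and 14.1 CPM in female WT libraries, so that 1 library of each sex was high. Pcsk2, the prohormone convertase PC2, stood at 27 and 33.9 CPM in male KO against 7.25 and 6.98 CPM in male WT libraries. In females it was at 13.2 and 9.0 CPM in KO against 26.3 and 21 CPM in WT libraries. The groups were apart in both sexes and in opposite order. DESeq2 gave an adjusted p of 6.94e-06 in males and of 4.62e-07 for the difference between the sexes, while edgeR gave an adjusted p of 1 in males and of 0.98 for that difference.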

How the data were processed

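The deposited table holds raw read counts per gene, per the file headers, made with featureCounts 1.6.1 on Ensembl exons (GRCm38, release 97) without strand, a read over several genes counting for each. Per the labels' protocols, cDNA came from SMART-Seq v4 and Nextera XT with 2 rounds of PCR and no molecular identifiers, so counts include copies. No source used here names the aligner. The authors' deposited tables per sex hold, per the file headers, log2 fold changes, a test score and p-values of listed genes only, and they were used solely for the 2 members they list.

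Gene symbols came from GENCODE M21. The 22013 genes kept by filterByExpr were tested with edgeR 4.0.16 in R 4.3.3 (TMM factors 0.9793 to 1.022, quasi-likelihood F test, two-sided, robust) and adjusted with Benjamini-Hochberg over all of them at 0.05. KO against WT over both sexes and males against females came from a fit with sex and genotype as terms, and other comparisons a model of 4 groups, all on 8 libraries. The script was tested on simulated data with 200 changed genes. Their spread between libraries was set lower than the spread found here, so that test does not show the power of these comparisons. CPM use scaled library sizes. DESeq2 1.42.0, other scalings and filters, a replicate block and each library left out were alternatives.

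Replicates are biological per the submitters. The members and gene lists were chosen with earlier results of these data known. Members were named where they reached 10 RPKM (with up to 3 lower ones per family and those at 0), where any edgeR call was made, and as the 6 with the lowest unadjusted p and at least 1 CPM in each KO comparison and in the difference between the sexes. Other names are marked in the text. Results for 2 members are not reported here.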

Additional observations from a re-analysis of the deposited data

Results flagged for a closer look

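In 64 groups of 4 libraries, a library counted as standing apart where its gap to the nearest other library, as a share of the group's range, was above 0.829, which chance gives in about 1 in 20 groups. Male_KO1 stood apart for Syt12 (19.8 CPM, against 5.12 to 7.54 CPM in the other KO libraries) and for Vamp5 (8.96 CPM, against 0.411 to 1.05 CPM). Female_KO1 was low for Rab3gap1 (21.4 CPM, against 34.9 to 37.1 CPM in the other KO libraries). Among WT libraries, female_WT2 stood apart for Stxbp6 (3.87 CPM, against 0 in the others) and for Vamp5 (1.41 CPM, against 0.587 to 0.708 CPM), and male_WT2 for Syn1 (775 CPM, against 628 to 648 CPM).

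Stx11, Vamp3 and Vamp8 had KO libraries on opposite sides of WT in the sexes. So did Rab39 (below in males, above in females) and Stx8 (above in males, below in females). The share of all tested genes with such a reversal was not computed. The male effect minus the female effect was -2.70 for Stx11 (edgeR unadjusted p = 0.00422), -3.78 for Vamp3 (0.0123) and 5.27 for Vamp8 (0.0117), each with an adjusted p of 0.98.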

How the results depend on the processing

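The edgeR count of members called was 0 in all 5 comparisons under each other scaling and filter, in the fits of 1 sex alone, and without each library in turn (0 to 0). DESeq2 gave 2 members over both sexes, 2 in females and 3 for the difference between the sexes; the cause was not tested. With the replicate block the count was 0 in each comparison. Deviations of same-numbered libraries from their group means were only weakly correlated (-0.1 to 0.11). These values do not show whether such libraries were prepared together. Of the 24 fold changes of members named for a low p, none changed sign under any alternative run, and 6 passed the threshold under DESeq2 alone, whereas those of abundant members near 0 did change sign. Leaving out single libraries turned the sign of ratios near 0. The KO minus WT difference ranged from -0.16 to 0.07 for Syt11 over Syt5, from -0.08 to 0.07 for Stx7 over Stx12, from -0.12 to 0.39 for Cplx1 over Cplx2 and from -0.13 to 0.07 for Rab3a over Rab3d. No pair passed under any pseudocount or with coding length, but a single pair could not pass after adjustment over the families. The paired test could not pass in any family, because its smallest p is 0.125. With 2 libraries per group and a biological coefficient of variation of 76.6%, small changes in low members were not detectable at this depth and number. Large log2 fold changes also went uncalled by edgeR, such as 4.88 (SE 2.29) for Syt2 in males and 3.96 (SE 0.89) for Syt12 in females. A count of 0 members called therefore does not show that the members were unchanged.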
